A study of Homo sapiens with 8 samples.

Results

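The mitochondrial ribosome, or mitoribosome, is the machine that translates the few mRNAs made from the mitochondrial genome, and all of its proteins are encoded in the nucleus. The genes described here are those in the deposited count table whose symbol is MRPL or MRPS followed by a digit, without names that hold a hyphen. The rule gave 79 of the 10105 genes in the table. Of these, 50 encode proteins of the large subunit, 26 encode proteins of the small subunit, 2 are pseudogenes (MRPS31P5 and MRPL45P2), and MRPS36 was assigned to neither subunit because it is also described as a subunit of the 2-oxoglutarate dehydrogenase complex. The assignment follows function and not the symbol, so that MRPS30 (mL65 in the standard ribosomal protein names) and MRPS18A (mL66) counted as large-subunit proteins. The GENCODE annotation held 78 protein-coding names under the rule, of which 77 were in the table, and the remaining one, MRPL58, is listed there under its older symbol ICT1.

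The study compared WT HEK293T cells, a human embryonic kidney line, with an XRN1-null line made from them by CRISPR/Cas9 editing with 1 guide to exon 6 of XRN1, the main cytoplasmic exonuclease that degrades decapped mRNA from its 5′ end. A single edited line stood for the null genotype, so that the genotype and that line cannot be told apart. Both lines were plated 24 h before harvest, and the sources used here name no treatment. Total mRNA was measured by RNA-Seq and ribosome-protected fragments (RPF) by Ribo-Seq, with 2 biological replicates for each of the 4 groups and 8 libraries in all.

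Mitoribosomal proteins are made on cytosolic ribosomes and imported into mitochondria, where they assemble with the mitochondrial rRNAs. Some have a bacterial homolog and carry the names uL, bL, uS or bS, and others, named mL or mS, are found only in mitochondrial ribosomes. The large subunit holds the peptidyl transferase centre, the exit tunnel, the central protuberance and the flexible stalk that recruits translation factors, and the small subunit holds the decoding centre.

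Some promoters of these genes held short motifs, which the choice of genes did not use. RefSeq windows (GRCh38.p14) of 300 bases, 250 before the annotated start and 50 from it on, were matched by symbol for 68 of the 79 genes, with 84 windows. Short motifs were searched on both strands: AAGATGGC, the core of the element bound by YY1, CCGGAAG, the core of ETS-family sites such as those bound by GABP, and GCGCATGCG, the core of the NRF1 site. An AAGATGGC and a CCGGAAG can share the letters AAG. AAGATGGC was found in 27.4% of the 84 windows, in 5.50% of the 11352 windows of all genes of the count table and in 2.89% of all 35116 windows. CCGGAAG was found in 38.1%, 18.6% and 10.3% of them, and GCGCATGCG in 3.57%, 3.51% and 1.92%. Of the 22 distinct AAGATGGC matches, in 21 genes, 16 lay at or after the nearest annotated start and 18 read in the direction of the gene, at a median position of 11 bases after the start base.

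Windows of 100 bases, 50 of them before the start, are shown because the genes recur in the results below: MRPL42, MRPS12 and MRPS33 are among those whose mRNA fell furthest, MRPL12 and MRPL51 had high mRNA levels, MRPS10 had one of the smallest p-values for a higher translation efficiency, and MRPS18A and MRPS18B are paralogs. The windows are at chr12:93467464-93467563 (MRPL42, plus strand), chr12:6493213-6493312 (MRPL51, minus), chr6:42217812-42217911 (MRPS10, minus), chr6:43687742-43687841 (MRPS18A, minus), chr6:30617790-30617889 (MRPS18B, plus), chr19:38930894-38930993 (the first of the MRPS12 starts, plus), chr7:141014903-141015002 (the second of the MRPS33 starts, minus) and chr17:81703317-81703416 (MRPL12, plus). Capitals mark the letters of the motifs on either strand.
MRPL42: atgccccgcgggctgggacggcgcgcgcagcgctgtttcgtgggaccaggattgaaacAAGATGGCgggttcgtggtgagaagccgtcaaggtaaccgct
MRPL51: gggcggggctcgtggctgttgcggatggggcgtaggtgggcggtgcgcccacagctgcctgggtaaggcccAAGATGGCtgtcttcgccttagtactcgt
MRPS10: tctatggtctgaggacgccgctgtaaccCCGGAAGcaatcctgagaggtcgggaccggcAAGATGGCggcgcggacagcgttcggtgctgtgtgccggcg
MRPS18A: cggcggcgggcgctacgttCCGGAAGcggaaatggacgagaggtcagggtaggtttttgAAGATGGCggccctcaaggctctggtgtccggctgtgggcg
MRPS18B: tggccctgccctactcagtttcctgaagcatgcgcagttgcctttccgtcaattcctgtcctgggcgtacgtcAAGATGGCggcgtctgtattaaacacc
MRPS12: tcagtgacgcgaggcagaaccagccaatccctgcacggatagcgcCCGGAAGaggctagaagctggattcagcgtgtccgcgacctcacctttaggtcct
MRPS33: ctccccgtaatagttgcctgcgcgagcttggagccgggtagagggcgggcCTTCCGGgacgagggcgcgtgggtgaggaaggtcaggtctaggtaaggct
MRPL12: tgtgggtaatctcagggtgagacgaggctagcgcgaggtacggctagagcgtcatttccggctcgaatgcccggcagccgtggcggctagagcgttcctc

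In MRPL42, MRPL51, MRPS10, MRPS18A and MRPS18B the AAGATGGC began 8, 21, 9, 9 and 23 bases after the start base. MRPS10 and MRPS18A also held CCGGAAG, beginning at positions -22 and -31. The window of MRPL12 held none of the 3 motifs. Among the genes whose mRNA fell in XRN1-null cells, AAGATGGC was in 25% of 52 windows and CCGGAAG in 36.5%, against 31.25% and 40.6% of the 32 windows of the other members. Some genes have several windows, and these differences were not tested. A match is a description of letters, and binding was not measured here.

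XRN1 itself was measured first. Its RNA-Seq level, in counts per 1 M counts (CPM), was 33.5 and 33.0 for WT against 282 and 253 for XRN1-null, a log2 fold change of 3.01 (SE 0.08, adjusted p = 1.92e-06). Its RPF level was 34.4 and 49.8 CPM (WT) against 22.6 and 18.4 CPM (null), a log2 difference of -1.08 (SE 0.20, adjusted p = 0.00641) that did not pass the threshold used here. The mRNA of the edited gene was thus higher, and the values of its footprints lower, in the libraries labelled XRN1-null. The paper reports that every XRN1 transcript it could detect in the null line retained an intron. It describes these transcripts as decay intermediates that cannot be translated. The RNA-Seq libraries held 33757487 to 38145433 counts in the table and the Ribo-Seq libraries 1921641 to 4399542, the lowest being WT replicate 1. Of 7 marker genes fixed for HEK293T, 6 were in the table, and of 7 markers of other cell types 1 was (COL1A1, at 13.9 to 37.3 CPM). Every one of the 79 genes had at least 10 counts in each library, with a lowest count of 80 in RNA-Seq and of 31 in Ribo-Seq. CPM are counts per 1 M scaled by trimmed-mean (TMM) factors. A gene was called at an adjusted p below 0.005, from the quasi-likelihood test of edgeR adjusted by Benjamini-Hochberg over all 10105 genes, and a fold change is XRN1-null over WT on the log2 scale.

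The mitoribosomal protein genes spanned a wide range of levels in WT cells. Per kb of the gene width in the table, the median of the 79 genes was 61.4 and 60.2 CPM per kb in the WT RNA-Seq libraries, with 8 in 10 genes between 23.4 and 146 in replicate 1. In the WT Ribo-Seq libraries the median was 71.4 and 66.7. MRPL12 (bL12m, the stalk protein that contacts translation factors) had the highest mRNA level, 323 CPM per kb, followed by MRPL37 (mL37) at 271 and MRPL51 (mL51) at 254. MRPL51 had the highest RPF level, 323 ± 48.6 (SD, n = 2), followed by MRPL12 at 237 ± 45.5 and MRPL21 (bL21m) at 203 ± 41.9. Both MRPL51 libraries lay above those of MRPL12 and MRPL21, whose ranges overlapped.

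At the low end stood the pseudogenes, with an mRNA level of 2.21 CPM per kb for MRPL45P2 and 2.34 for MRPS31P5, and then MRPS11 (uS11m) at 14.8. RPF levels were lowest for MRPS31P5 (4.74), MRPS25 (mS25, 11.5) and MRPS11 (13.7). The widths of MRPS25 and MRPS11 in the table were 5455 and 5224 bases around coding sequences of 519 and 582 bases. Some of these genes share exon bases with neighbours in the GENCODE annotation. MRPL12 shared 69.5% of them with a gene on the same strand (ENSG00000262660), MRPS25 shared 39.1% with NR2C2 on the other strand and MRPL51 shared 27.6% with NCAPD2 on the other strand, and reads there cannot be assigned by position alone.

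**Figure D1:**
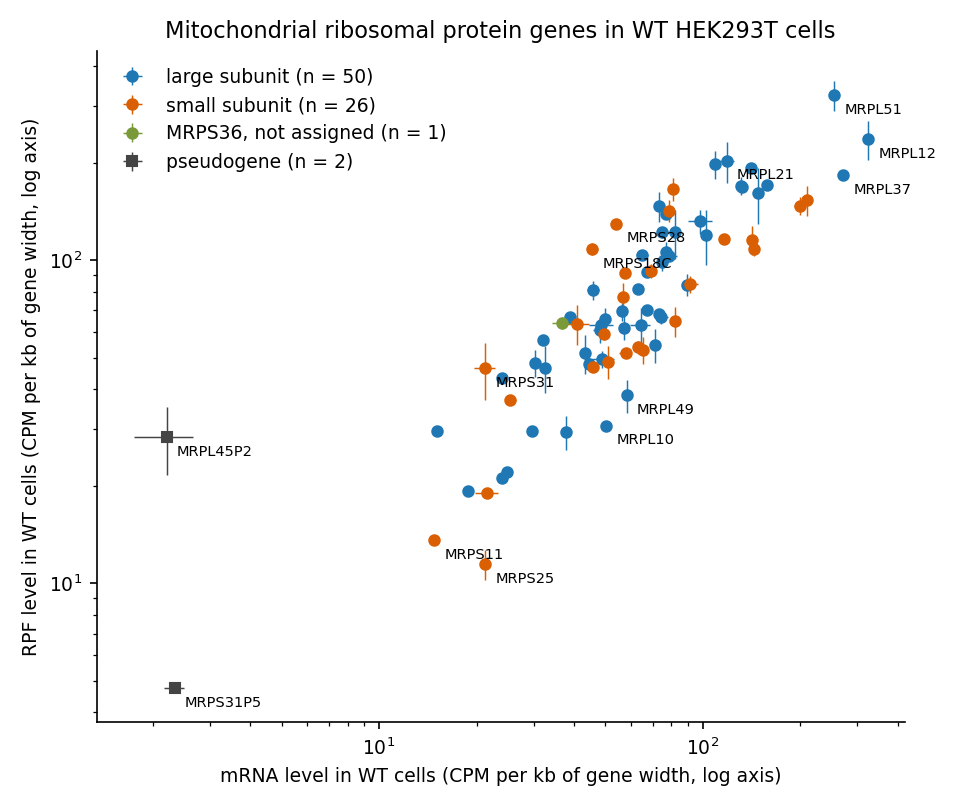
Mean mRNA level (x axis) and mean RPF level (y axis) of each of the 79 genes in WT cells, in CPM per kb of gene width on log axes, with bars from the lower to the higher of the 2 libraries and colours by subunit. The pseudogenes MRPL45P2 (2.21 on the mRNA axis, 28.3 on the RPF axis) and MRPS31P5 (2.34 and 4.74) lie apart from the other genes, and MRPL12, MRPL37 and MRPL51 lie at the upper right.

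Across the 77 genes that are not pseudogenes, WT mRNA and RPF levels in log2 CPM ran together (Pearson's r = 0.76, Spearman's rho = 0.73, across genes that share the same libraries, given as a description). The ratio of footprints to mRNA gives the translation efficiency (TE). On a log2 scale centred on the median of all genes, the median TE of the 79 genes in WT cells was 0.62, and 66 of the 79 lay above the all-gene median. It was 0.63 for the large subunit and 0.25 for the small subunit. For comparison it was 0.91 for 75 nuclear-encoded subunits of oxidative phosphorylation (OXPHOS) and 0.55 for 81 cytosolic ribosomal proteins. TE was not adjusted for the share of each gene width that codes, so that these values can differ with gene structure.

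The lowest WT values were those of MRPS25, at -0.61 (-0.82 to -0.39 over the 4 pairings of a WT Ribo-Seq with a WT RNA-Seq library), MRPL10 (uL10m, the base of the stalk) at -0.42 (-0.51 to -0.32) and MRPL49 (mL49) at -0.33 (-0.53 to -0.12). The highest were those of the pseudogene MRPL45P2 at 3.75 (3.15 to 4.35), MRPS28 (bS1m) at 1.54 (1.48 to 1.61) and MRPS18C (bS18m) at 1.53 (1.42 to 1.63). Over these pairings the ranges of MRPS25, MRPL10 and MRPL49 overlapped each other, as did those of MRPS28 and MRPS18C, whereas the low and the high genes lay far apart. Coding length and table width were 519 and 5455 bases for MRPS25, 783 and 1996 for MRPL10, and 498 and 2162 for MRPL49. They were 561 and 707 bases for MRPS28 and 426 and 1101 for MRPS18C. The part of the coding share in these TE values was not tested. MRPS28 shares 35.8% of its exon bases with ENSG00000276418 on the same strand and MRPS18C 40.2% with ABRAXAS1 on the other strand. In counts, MRPS28 had 38.7 and 37.4 CPM in WT RNA-Seq and 88.6 and 94.9 CPM in WT Ribo-Seq, and MRPS25 had 119 and 113 CPM against 69.3 and 56.0 CPM.

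The first comparison asked how mitoribosomal protein mRNAs differed in cells without XRN1. Most were lower. The mRNA of 45 of the 79 genes fell and that of 1, the pseudogene MRPS31P5, rose, where 23.2% of all genes fell and 22.9% rose. The fitted change lay below 0 for 66 of the 79, against 51% of all genes. Both XRN1-null libraries lay below both WT libraries for 64 genes and above both for 10, against 43.7% and 41% of all genes. The median log2 fold change was -0.34, with quartiles of -0.46 and -0.13, against a median of -0.01 for all genes. Together the 79 genes held 0.786% and 0.765% of the counts of the WT RNA-Seq libraries and 0.662% and 0.664% of those of the XRN1-null libraries. Their summed level was 17.8% lower (SD, n = 2: 7908 ± 62.0 CPM for WT, 6502 ± 3.52 CPM for XRN1-null). On this scale the summed level of all genes was itself 3.82% lower.

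**Figure D2:**
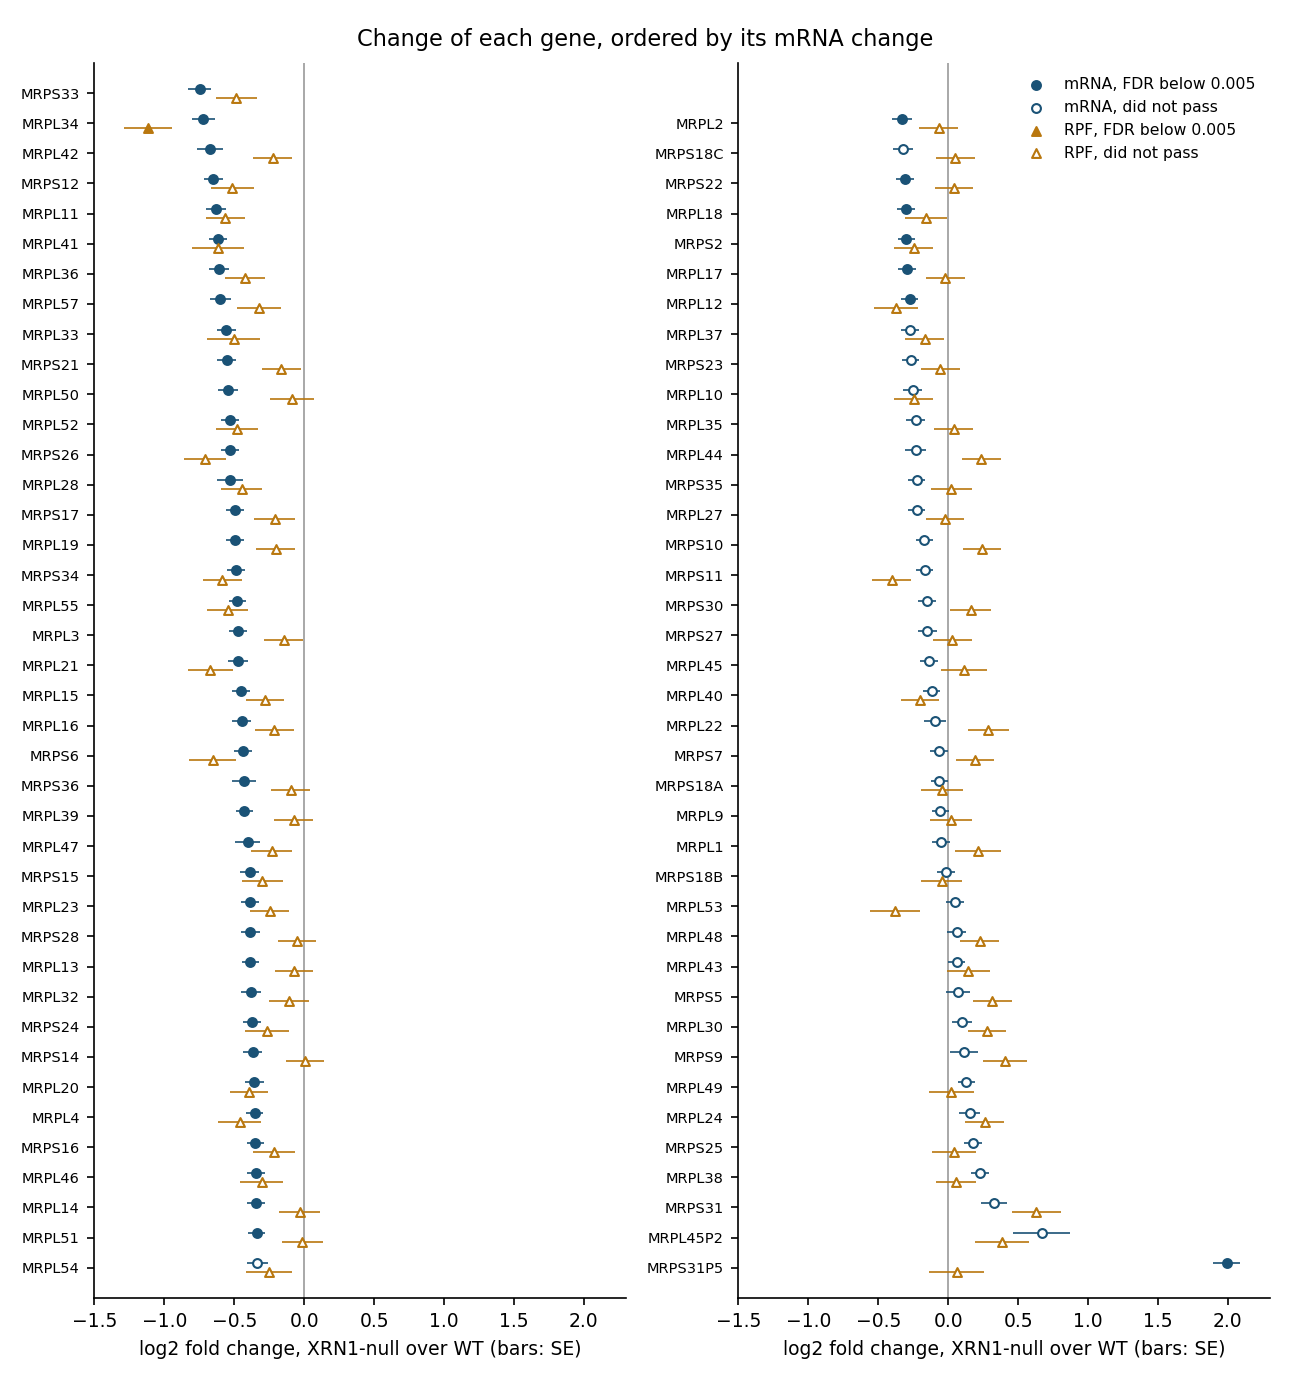
Log2 fold change of mRNA (circles) and RPF (triangles) for each of the 79 genes, XRN1-null over WT, with standard errors as bars and filled symbols for adjusted p below 0.005, ordered by the mRNA change from the top left to the bottom right. The mRNA values run from -0.75 (MRPS33) to 0.33 (MRPS31) among protein-coding genes, and MRPS31P5 stands apart at 1.99.

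These mRNAs are short, and in this table the change went with gene width. Of the 79 genes, 60 lay in the shortest of the 4 width classes of equal size in the table (111 to 2073 bases), where the median change of all 2527 genes was -0.26 and 39.5% fell. For the 60 the median was -0.35 and 61.7% fell. Spearman's rho of the mRNA change with log2 width was 0.41 across the 79 genes and 0.35 across all genes, as a description. With an offset that removes the trend with width in each library, an alternative chosen after seeing the data, 15 of the 79 fell, 5 rose and the median was -0.12. The share of all genes that fell with that offset was 22.1%, above the share of the 79, and 18% rose, with a median of -0.05. Without XRN1-null replicate 1 the number of the 79 that fell was 13 (11% of all genes) and without XRN1-null replicate 2 it was 15 (10.9% of all genes), with medians of -0.31 and -0.34. Among the 48 genes that share at most 10% of their exon bases with another gene on either strand, 28 fell and none rose, with a median of -0.38.

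MRPS33 (mS33, a small-subunit protein found only in mitochondria) had the lowest fitted change. Its mRNA level was 78.8 and 70.6 CPM (WT) against 42.6 and 46.3 CPM (null), a fall of 0.75 (SE 0.08, adjusted p = 0.000155). MRPL34 (bL34m) had 66.6 and 57.8 CPM (WT) against 38.4 and 37.2 CPM (null), and fell by 0.72 (SE 0.08, adjusted p = 0.000204). For both the groups did not overlap.

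MRPL42 (mL42) had 173 and 144 CPM (WT) against 101 and 97.3 CPM (null), and fell by 0.68 (SE 0.09, adjusted p = 0.000502). MRPS12 (uS12m, a protein of the decoding centre) had 89.6 and 82.7 CPM against 54.4 and 55.4 CPM, and fell by 0.65 (SE 0.07, adjusted p = 0.000145). MRPL11 (uL11m, at the stalk base) had 133 and 120 CPM against 81.5 and 81.8 CPM, and fell by 0.63 (SE 0.07, adjusted p = 0.000196). In each case the higher XRN1-null library lay well below the lower WT library. MRPS33, MRPL34, MRPS12 and MRPL42 come from separate loci on GRCh37 (chr7:140702410-140715028, chr19:17403418-17417652, chr19:39421584-39423808 and chr12:93861290-93909990), and MRPL34 shares 14.6% of its exon bases with ABHD8 on the other strand.

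The fall was found in both subunits, to be read against the 23.2% of all genes and the 39.5% of the shortest width class that fell. Of the 50 large-subunit genes 30 fell and none rose (median -0.34), and of the 26 small-subunit genes 14 fell and none rose (median -0.31). Summed levels were 18.5% and 17.3% lower, against 3.82% for all genes. Of the 46 genes with a bacterial homolog 32 fell (median -0.36), and of the 30 mitochondria-specific genes 12 fell (median -0.25), and the difference between these classes was not tested. Within the large subunit, 4 of 8 central protuberance genes (median -0.26), 3 of 6 exit-tunnel genes (median -0.21) and 2 of 5 stalk genes (median -0.27) fell.

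Of the 5 stalk genes, MRPL11 and MRPL12 fell. MRPL12, which forms the dimers of the stalk, had 328 and 328 CPM (WT) against 270 and 272 CPM (null), and fell by 0.27 (SE 0.06, adjusted p = 0.00463), a value that was 0.016 with the width offset. MRPL54 (mL54) at -0.34 (adjusted p = 0.00508) and MRPL10 at -0.25 (adjusted p = 0.00954) did not pass. MRPL53 (mL53) had 54.3 and 52.8 CPM (WT) against 55.3 and 55.5 CPM (null), with a fitted change of 0.05 (adjusted p = 0.50). MRPL53 shares 72.8% of its exon bases with CCDC142 on the same strand and 79.4% with a gene on the other strand (ENSG00000286883), so that its counts can hold reads of those genes. Differences between the stalk genes were not tested. Among the most abundant mRNAs, MRPL51 had 175 and 169 CPM against 136 and 136 CPM and fell by 0.34 (adjusted p = 0.00189; 0.048 with the width offset), and MRPL37 had 412 and 391 CPM against 326 and 337 CPM, with -0.27 (adjusted p = 0.00626).

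The paralogs of the MRPS18 family sit at different places in the mitoribosome: MRPS18C takes the place of the bacterial protein in the small subunit, MRPS18B (mS40) is a second small-subunit protein and MRPS18A belongs to the large subunit. Their mRNA changes were -0.32 (SE 0.07, adjusted p = 0.00543) for MRPS18C, -0.01 (SE 0.06) for MRPS18B and -0.06 (SE 0.06) for MRPS18A, which shares 50.9% of its exon bases with RSPH9 on the other strand, and none passed. MRPS18C had 52.1 and 48.2 CPM (WT) against 39.0 and 41.4 CPM (null), whereas MRPS18B had 84.6 and 89.8 CPM against 87.2 and 85.4 CPM, with overlapping groups.

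**Figure D3:**
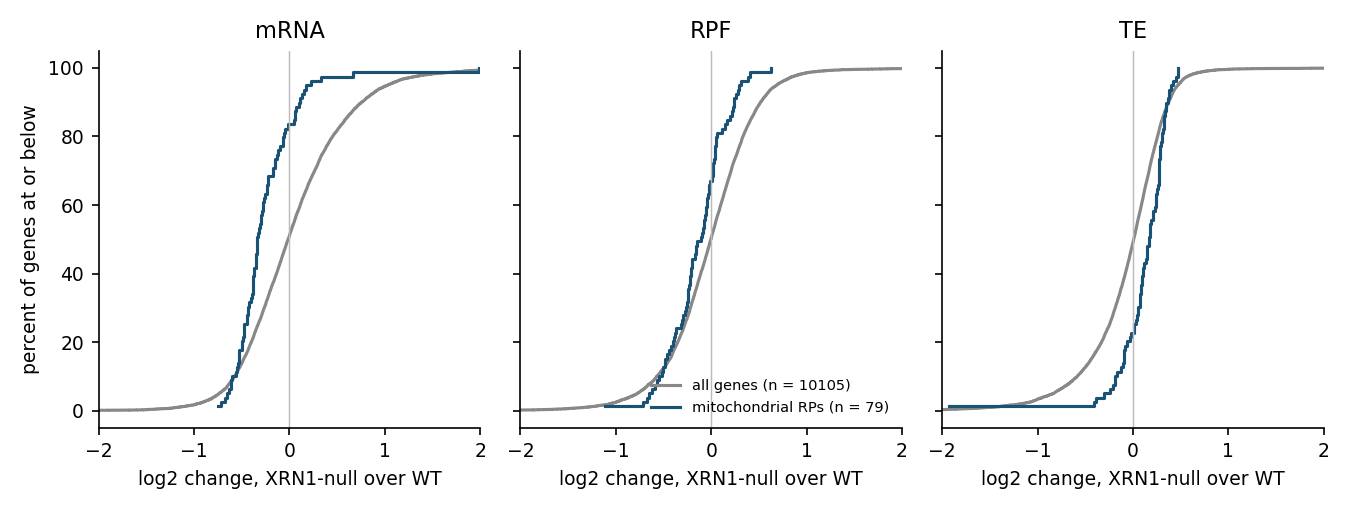
Cumulative percent of genes at or below a given log2 change, XRN1-null over WT, for mRNA, RPF and TE, with all 10105 genes in grey and the 79 genes in blue. The blue curve lies to the left of the grey one for mRNA (medians -0.34 and -0.01), less so for RPF (-0.11 and 0.00, where the width offset moves the median of the 79 genes to 0.057), and to the right for TE (0.17 and 0.01).

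The second comparison asked whether footprints followed. By RPF, 1 of the 79 genes fell (MRPL34) and none rose, against 1.14% and 0.633% of all genes. This count depended on the libraries: 17 fell and 3 rose without WT replicate 2 (10.8% and 12.7% of all genes), 8 fell without WT replicate 1 (7% of all genes), and 8 fell with the replicate number as a block (6.58% of all genes). At an adjusted p below 0.05, 11 fell and 1 rose, against 8.38% and 7.07%. The unadjusted p was below 0.05 for 18 genes lower and 3 higher in the XRN1-null libraries, against 16.8% and 16.2% of all genes. DESeq2 gave 4 lower and 0 higher at an adjusted p below 0.05, against 3.54% and 2.84%. The fitted RPF change lay below 0 for 53 of the 79 (50.3% of all genes), and the median was -0.11 against 0.00 for all genes. With the width offset the RPF median was 0.057, so that its direction depends on that setting. The summed RPF level was 9.25% lower (SD, n = 2: 8894 ± 446 CPM for WT, 8071 ± 104 CPM for XRN1-null), against 1.14% lower for all genes. In both XRN1-null libraries 37 genes were lower than in both WT libraries and 11 higher, against 32.3% and 32.1% of all genes.

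MRPL34 had an RPF level of 68.8 and 53.5 CPM (WT) against 27.6 and 27.5 CPM (null). Its RPF fell by 1.12 (SE 0.17, adjusted p = 0.0031). Of the other genes whose mRNA fell furthest, MRPS12 had 76.6 and 63.4 CPM against 50.4 and 45.9 CPM (-0.51, adjusted p = 0.0425), MRPL11 had 119 and 108 CPM against 77.5 and 75.2 CPM (-0.56, adjusted p = 0.0198) and MRPS33 had 72.9 and 64.8 CPM against 50.2 and 47.1 CPM (-0.48, adjusted p = 0.0435). MRPL42, with 151 and 170 CPM against 142 and 134 CPM, had a fitted change of -0.22 (adjusted p = 0.286). All 4 had separate groups, yet none passed at 0.005 in the fit without a replicate block. With that block MRPL11 passed, where 6.58% of all genes fell.

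The RPF changes above 0 with the smallest p-values were those of small-subunit genes. MRPS31 (mS31) had 49.5 and 74.4 CPM (WT) against 100 and 97.7 CPM (null), with a fitted change of 0.63 (SE 0.17, adjusted p = 0.0323). MRPS9 (uS9m) had 79.7 and 106 CPM against 126 and 124 CPM (0.40, SE 0.16, adjusted p = 0.0979). MRPS5 (uS5m), with 67.2 and 70.7 CPM against 88.6 and 83.7 CPM, had a change of 0.32 (SE 0.14, adjusted p = 0.132). For MRPS31 and MRPS9 the WT replicates lay far apart, replicate 1 being the shallowest library.

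Changes in mRNA and RPF ran together over the genes (Pearson's r = 0.75, Spearman's rho = 0.77, across 77 genes without the pseudogenes that share the same libraries, as a description). Of the 45 genes whose mRNA fell, 43 had a fitted RPF change below 0 and 32 had both XRN1-null Ribo-Seq libraries below both WT libraries. Their median change was -0.43 for mRNA and -0.25 for RPF, and 36 of the 45 (80%) had a fitted TE change above 0. Among all 2344 genes whose mRNA fell, the medians were -0.53 and -0.40, the RPF change lay below 0 for 94.1% and the TE change above 0 for 72.2%. A low mRNA value chose these genes and enters TE with the opposite sign, so that these shares are descriptions.

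The third comparison asked whether TE differed, by the assay-by-genotype term of a fit over all 8 libraries. Of the 79 genes, 1 was lower in TE (MRPS31P5) and none higher, where 1.78% and 0.0495% of all genes were lower and higher. At an adjusted p below 0.05 there was again 1 lower and 1 higher (MRPL44), against 6.46% and 1.02%. The fitted TE change lay above 0 for 61 of the 79 (51% of all genes) with a median of 0.17, against 0.01 for all genes. At an unadjusted p below 0.05, 16 genes were higher and 2 lower, against 8.76% and 14.6% of all genes. DESeq2 gave 0 higher at an adjusted p below 0.05, against 0.732%. The number above 0 was 68 without WT Ribo-Seq replicate 1 (51.8% of all genes) and 49 without WT Ribo-Seq replicate 2 (51.2%).

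MRPL44 (mL44, a protein with a ribonuclease III-like fold) had 41.5 and 42.1 CPM (WT) against 33.9 and 37.1 CPM (null) by RNA-Seq. By Ribo-Seq it had 74.0 and 77.2 CPM against 91.9 and 86.8 CPM. The mRNA groups and the RPF groups were separate and lay in opposite order, and the TE difference was 0.47 (SE 0.13, adjusted p = 0.0448). The adjusted p of MRPL44 ran from 0.00921 to 0.312 over the alternatives. It was 0.0511 with the replicate block within each assay. With a block that pairs same-numbered RNA-Seq and Ribo-Seq libraries of a genotype it was 0.0274.

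MRPS10 (uS10m) had 98.9 and 97.1 CPM against 88.3 and 85.7 CPM by RNA-Seq and 103 and 97.6 CPM against 123 and 113 CPM by Ribo-Seq, with a TE difference of 0.42 (SE 0.13, adjusted p = 0.0709). MRPS14 (uS14m), whose mRNA fell by 0.37, had RPF levels of 83.3 and 82.0 CPM against 85.2 and 80.5 CPM, with a TE difference of 0.37 (SE 0.13, adjusted p = 0.0949). The stalk gene MRPL53 had the lowest fitted TE change among protein-coding members, -0.41 (SE 0.18, adjusted p = 0.201, with the shared exon bases given above), with RPF levels of 93.8 and 65.9 CPM (WT) against 63.6 and 55.6 CPM (null).

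MRPS31P5 was the member called as higher in mRNA and the one called as lower in TE. MRPS31P5 is a noncoding copy of MRPS31, annotated on GRCh37 under 2 overlapping entries of that name, the wider at chr13:52741844-52768600. It had 7.60 and 8.74 CPM (WT) against 33.4 and 31.5 CPM (null) by RNA-Seq. It rose by 1.99 (SE 0.10, adjusted p = 7.76e-06). Its RPF level was 16.1 and 17.0 CPM (WT) against 17.9 and 16.9 CPM (null), with overlapping groups and a fitted change of 0.06 (SE 0.20, adjusted p = 0.859). The TE difference was thus -1.93 (SE 0.21, adjusted p = 0.000278). Without WT replicate 2, XRN1-null replicate 1 or XRN1-null replicate 2 of Ribo-Seq its adjusted p was 0.00687, 0.00777 and 0.00527, which does not pass. The annotated exons of the wider entry share 68.7% of their bases with other genes on the same strand, THSD1P1 among them, so that its counts can hold reads of those transcripts.

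The parent gene MRPS31 (chr13:41303264-41345326) had 26.3 and 30.6 CPM (WT) against 36.9 and 34.4 CPM (null) by RNA-Seq, with a change of 0.33 (SE 0.09, adjusted p = 0.0156). The pseudogene and the parent transcript were identical at 816 of 907 aligned bases, and 0.475% of the 29-base stretches of the pseudogene transcripts were found unchanged in MRPS31. How many footprints could be placed at both loci when mismatches are allowed was not tested. The 60 aligned bases with the most mismatches, 11, are shown with these in capitals.
MRPS31: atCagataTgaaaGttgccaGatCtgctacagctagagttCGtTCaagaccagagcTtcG
MRPS31P5: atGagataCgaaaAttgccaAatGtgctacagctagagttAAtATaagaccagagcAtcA

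MRPL45P2 (chr17:45527934-45569859) is a closer copy, of MRPL45 (mL45, at the exit tunnel), identical at 490 of 495 aligned bases, and 11.8% of the 29-base stretches of its transcripts are found in MRPL45. In the 60 aligned bases with the most mismatches, 3 differ.
MRPL45: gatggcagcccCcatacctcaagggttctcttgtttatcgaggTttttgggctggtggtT
MRPL45P2: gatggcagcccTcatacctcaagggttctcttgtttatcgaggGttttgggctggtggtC

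MRPL45P2 had 3.73 and 2.44 CPM (WT) against 4.92 and 4.93 CPM (null) by RNA-Seq (0.67, SE 0.20, adjusted p = 0.020), and 30.2 and 48.9 CPM against 51.4 and 57.4 CPM by Ribo-Seq (0.39, SE 0.19, adjusted p = 0.189). MRPL45 had 75.4 and 72.2 CPM against 66.3 and 68.1 CPM by RNA-Seq and 76.0 and 99.9 CPM against 89.4 and 105 CPM by Ribo-Seq. Footprints within the shared stretches cannot be assigned to the parent or the copy, and how many of the counted reads lie there was not tested.

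Other genes of mitochondrial translation were taken from lists written from general knowledge. Of 6 mitoribosomal proteins whose names in the table fall outside the rule, 2 fell and 1 rose in mRNA (median -0.11), against 23.2% and 22.9% of all genes. PTCD3 (mS39, a pentatricopeptide repeat protein near the mRNA entry channel) had 73.0 and 84.5 CPM (WT) against 147 and 144 CPM (null), and rose by 0.88 (SE 0.08, adjusted p = 8.34e-05). DAP3 (mS29, a GTP-binding protein of the small subunit) had a change of 0.19 (adjusted p = 0.0304). CHCHD1 (mS37) fell by 0.33 (adjusted p = 0.00254). MRPL57 (mL63), which is one of the 79 genes, fell by 0.60 (adjusted p = 0.000312), from 66.1 and 61.6 CPM to 40.2 and 44.1 CPM.

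Of 16 mitochondrial translation factors and related genes, 4 fell (25%) and 1 rose, with a median of 0.08, where 23.2% of all genes fell and 22.9% rose. TUFM, the mitochondrial elongation factor that brings aminoacyl-tRNA, had 412 and 441 CPM against 256 and 265 CPM and fell by 0.71 (SE 0.07, adjusted p = 8.63e-05). Its RPF level was 439 and 431 CPM against 270 and 275 CPM (-0.68, adjusted p = 0.00772). SLIRP, an RNA-binding protein that stabilises mitochondrial mRNAs, fell by 0.76 (adjusted p = 5.31e-05). The release-factor gene MTRF1L rose by 0.53 (adjusted p = 0.00054), and MTRF1 had a change of 0.41 (adjusted p = 0.00816).

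Of 25 mitoribosome assembly factors, 8 rose (32%) and 4 fell (16%), with a median of 0.12. Of all genes 22.9% rose and 23.2% fell. NSUN4, which works with MTERF4 in late assembly of the ribosome, had 32.0 and 35.3 CPM (WT) against 66.7 and 64.1 CPM (null), a rise of 0.96 (adjusted p = 3.62e-05). Its RPF level was 34.4 and 34.5 CPM against 31.3 and 35.3 CPM, and NSUN4 was the only gene of these 3 lists that passed in TE (-1.01, SE 0.16, adjusted p = 0.00275), where 1.78% of all genes were lower. MRM1, a methyltransferase of the large rRNA, rose by 0.92 in mRNA (adjusted p = 0.000113). The helicase gene DDX28 fell by 0.90 (adjusted p = 0.00028) and YBEY by 0.58 (adjusted p = 0.00203). None of these 47 genes passed by RPF in either direction, where 1.14% of all genes were lower and 0.633% higher.

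Of the larger groups nearest in function, 76 of 81 cytosolic ribosomal protein genes fell in mRNA (median -0.52) and 55 of 75 nuclear OXPHOS genes fell (median -0.44), with none rising in either, against 23.2% and 22.9% of all genes. By RPF 5 and 1 fell (medians -0.34 and -0.20), where 1.14% of all genes fell. By TE none of either group was called (medians 0.20 and 0.20), where 1.78% of all genes were lower and 0.0495% higher. The summed mRNA level was 29.7% lower for the cytosolic ribosomal proteins and 23.1% lower for the OXPHOS subunits, against 17.8% for the mitoribosomal proteins, and the summed RPF levels were 17.5%, 11.8% and 9.25% lower. The median gene widths were 880, 975 and 1388 bases. Over all genes the summed mRNA and RPF levels were 3.82% and 1.14% lower. The differences between the groups were not tested.

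**Figure D4:**
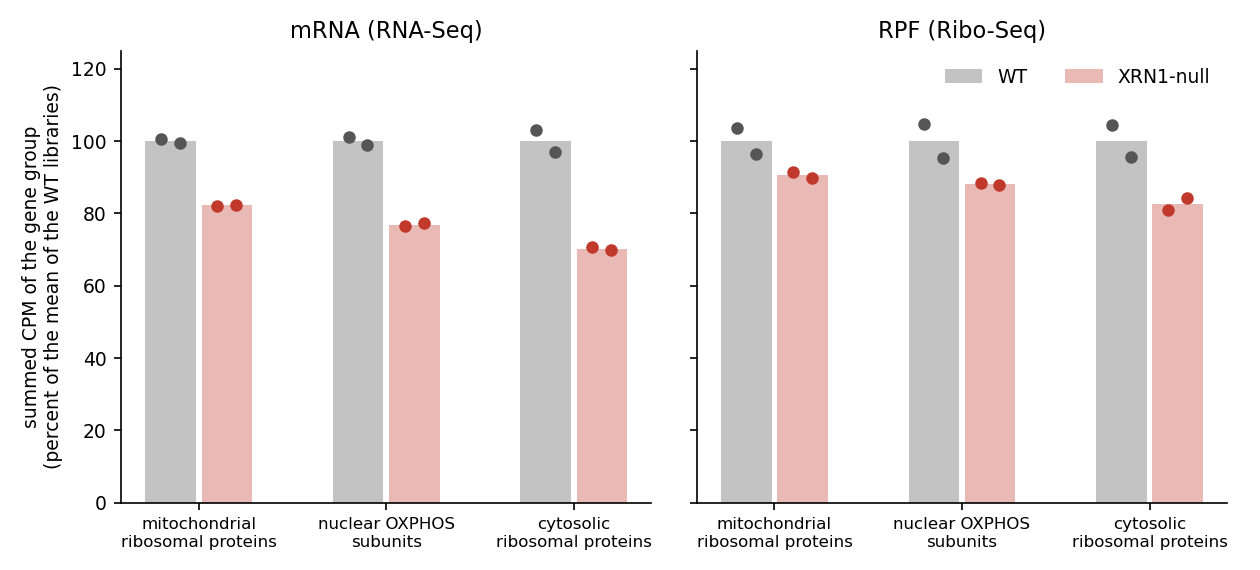
Summed CPM of the 79 mitoribosomal, 75 nuclear OXPHOS and 81 cytosolic ribosomal protein genes as a percent of the mean of the WT libraries, by RNA-Seq (left) and Ribo-Seq (right), with a point for each library and bars at the mean of 2. The XRN1-null bars lie 17.8%, 23.1% and 29.7% below WT for mRNA and 9.25%, 11.8% and 17.5% below for RPF. The sums over all genes, which are not drawn, were 3.82% and 1.14% lower.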

How the data were processed

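RNA-Seq (TruSeq) and Ribo-Seq libraries of WT and XRN1-null HEK293T cells were analysed, with 2 biological replicates in each of 4 groups. Reads of ribosomal RNA had been filtered by the authors (Bowtie2), who mapped the others to hg19 (TopHat2), kept footprints of 29 and 30 nt, counted reads per gene with QuasR and selected genes by an FPKM above 2, although 11 genes of the table have no RNA-Seq counts and 16 no Ribo-Seq counts. The deposited table holds their raw counts and the gene width. Whether counting used strand is not given in the sources used here. Files of the authors' own comparisons hold edgeR log2 fold changes, mean log2 CPM, p-values and FDR, and RiboDiff dispersions, p-values and TE, and were not used.

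The counts were fitted with edgeR 4.0.16 in R 4.3.3 (TMM factors, quasi-likelihood F test, Benjamini-Hochberg adjustment over 10105 genes, threshold 0.005), by assay for mRNA and RPF, and over all 8 libraries with an assay by genotype term for TE. The fits were tested on simulated data. DESeq2 1.42.0 was an alternative. Levels in log2 are of CPM plus 0.5. Counts per kb use the deposited width. Overlaps and coding lengths are from GENCODE v44 lifted to GRCh37, and promoter windows from RefSeq GRCh38.p14. RNA-Seq depth was 33757487 to 38145433 counts and Ribo-Seq depth 1921641 to 4399542. The RNA-Seq counts exceed the mapped RNA-Seq reads that the paper reports, whereas the Ribo-Seq counts do not exceed theirs. Sequencing was paired-end, and the sources used here do not say whether both mates were counted, so that a count may not be a separate fragment. The median absolute log2 difference between replicates over the 79 genes was 0.073 (WT) and 0.037 (XRN1-null) in RNA-Seq and 0.17 and 0.090 in Ribo-Seq.

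The genes and gene lists were chosen with earlier results of these data known. Named genes were, for each contrast, up to 5 rises and 5 falls past the threshold with all 4 pairs of libraries in the same direction (otherwise the 3 smallest p-values), the 3 highest and lowest levels and TE, the stalk, MRPS18 and pseudogene members, and in each other list up to 2 rises and 2 falls; MRPL45, as a parent gene, and the genes named for shared exon bases or a lowest fitted TE were added after their values were seen. The alternatives tried were other scaling, tests, filters, thresholds, depths, blocks, gene subsets, a width offset and leaving out each library.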

Additional observations from a re-analysis of the deposited data

Results flagged for a closer look

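The change of MRPS31P5 in XRN1-null cells differed between the assays, by the test of the interaction of assay and genotype. Its mRNA rose by 1.99 on the log2 scale, its RPF change was 0.06, and the difference was -1.93 (edgeR adjusted p = 0.000278). The adjusted p was 0.00687 without WT replicate 2, 0.00777 without XRN1-null replicate 1 and 0.00527 without XRN1-null replicate 2 of Ribo-Seq. No group had enough samples for a check of single outlying libraries.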

How the results depend on the processing

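With the likelihood ratio test, 3 genes rose in mRNA (28.9% of all genes), and by RPF 1 rose and 6 fell (4.64% and 5.9%). At an adjusted p below 0.05, 5 rose in mRNA (32.8% of all genes), 1 rose and 11 fell by RPF (7.07% and 8.38%), and 1 rose in TE (1.02%). RNA-Seq thinned to the Ribo-Seq depth gave 26 genes lower in mRNA (15.5% of all genes), and scaling by library totals gave a median mRNA change of -0.28. The width offset was chosen after seeing the data, as were the settings without the pseudogenes, with only the 48 members and per coding length. With the width offset, which takes out the trend with gene width, 5 genes rose and 15 fell in mRNA (18% and 22.1% of all genes). The mRNA median was then -0.12, MRPL12 was at 0.016 and MRPL51 at 0.048, and the RPF median was 0.057. Without the pseudogenes 0 genes rose in mRNA and 0 fell in TE. With only the 48 members that share little or none of their exon bases with another gene (at most 10% on either strand), 0 rose and 28 fell in mRNA (median -0.38), 0 fell by RPF and 0 in TE. The spread (SD over genes) of log2 levels per kb was 1.19 and 1.01 for WT and XRN1-null RNA-Seq and 1.08 and 1.01 for Ribo-Seq. It was 1.16, 0.99 and 1.00 with 2 CPM added (WT RNA-Seq, XRN1-null RNA-Seq, XRN1-null Ribo-Seq). Per coding length it was 0.91, 0.84, 0.80 and 0.73, and without the pseudogenes 0.95, 0.89, 0.99 and 0.93, in the order WT and XRN1-null RNA-Seq, WT and XRN1-null Ribo-Seq.

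Leaving out 1 library gave 1 to 6 genes higher and 13 to 54 lower in mRNA (13 without XRN1-null replicate 1 and 15 without XRN1-null replicate 2, where 11% and 10.9% of all genes were lower), with medians from -0.34 to -0.29. By RPF it gave 0 to 3 higher and 1 to 17 lower (8 without WT replicate 1 and 17 without WT replicate 2, where 7% and 10.8% of all genes were lower), and in TE 0 to 1 lower. The causes were not tested.

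The replicate numbers were not described as shared batches, and same-numbered samples deviated together by a correlation of 0.19 in RNA-Seq and 0.080 in Ribo-Seq, over 2 pairs each. Between RNA-Seq and Ribo-Seq it was 0.36 for WT and 0.033 for XRN1-null. With the replicate block, 3 genes rose (MRPS31P5, MRPS31 and MRPL45P2) and 49 fell in mRNA, the 45 of the fit without it among them. By RPF 1 rose (MRPS31) and 8 fell, MRPL34 and MRPL11 among them. The shares of all genes were 28.3% and 27.8% in mRNA and 6.1% and 6.58% by RPF. In TE the replicate block, within each assay or over both, left 1 lower and 0 higher. At an adjusted p below 0.05, the block over both assays gave 4 higher in TE (4.57% of all genes) and the block within each assay 0 (1.2%), so that MRPL44 no longer passed there.

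The median mRNA change stayed below 0 and the median TE change above 0 under every alternative run. Of the values of single named genes among the 79 under the alternatives, 1232 kept their side of the threshold, 64 newly passed and 23 no longer passed. Another 2 turned direction and had passed in at least 1 of the fits compared. A turn of a gene that passed in neither fit was counted as kept. The settings that only leave out genes reuse the main fit, so that their values could not change. Named genes outside the 79 were not entered. Lengths from RefSeq proteins were not run. RNA-Seq thinned to the Ribo-Seq depth gave 26 lower genes against 1 by RPF, and the parts of depth and of replicate spread in the number of RPF and TE calls were not separated.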
